A study of Mus musculus with 10 samples.

Results

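The genes described here encode the beta subunits of the sodium pump and ion carriers that depend on the sodium gradient it makes. They are Atp1b1, Atp1b2, Atp1b3, Slc12a2, Slc4a4 and Slc8a1, 6 of 18193 genes with a probe set of their own on the array. They were chosen by name: every probe set that carried one of these symbols alone was used, 20 of 45101 in all. Of these 20 probe sets, 15 were bright enough to be tested, and each gene had at least 1 that was.

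Whole dissected mouse lenses were profiled on Affymetrix whole-genome mouse arrays, in wild type (WT) animals and in animals labelled conditional null for the transcription factor Klf4 (Klf4CN). At embryonic day 16.5 (E16.5), 3 arrays were WT and 3 Klf4CN, each from lenses pooled from 5 embryos. At postnatal day 56 (PN56), 2 arrays were WT and 2 Klf4CN, each from lenses pooled from 3 young adults. The labels call the preparations independent and name neither a Cre driver nor a strain. The brightest Klf4 probe set gave no lower signal in the lenses labelled Klf4CN. Whether its target was removed by the deletion is not given in the labels, and if it was not, the signal checks nothing. Its signal was 739 ± 295 in WT and 1079 ± 278 in Klf4CN at E16.5 (SD, n = 3 each), and 185 ± 40.3 and 717 ± 20.9 at PN56 (SD, n = 2 each; log2 difference 1.88, limma adjusted p = 0.0042324). Genotype directions given here follow that label, not a measured loss of Klf4.

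The lens has no blood supply, and its clarity depends on tight control of water and ions. The sodium pump is built from a catalytic alpha and a glycosylated beta subunit, and the beta subunit is needed for the enzyme to fold and reach the membrane. The pump exports sodium and imports potassium, and its activity is known to be highest in the epithelium and outer fibres of the lens. Cotransporters then use the gradient: NKCC1 (Slc12a2) carries sodium, potassium and chloride inward, NBCe1 (Slc4a4) couples sodium to bicarbonate, and NCX1 (Slc8a1) exchanges sodium for calcium. Of the alpha subunits Atp1a4 was not tested, and the others were not analysed here.

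The upstream bases of the 2 brightest pump subunit genes are shown because both genes were brighter in the adult lens. The sequences are from RefSeq (GRCm38.p6), lie on the minus strand, run 5′ to 3′ and end just before the annotated start. Capitals mark every match, on either strand, to CACCC (a core shared by sites of Krüppel-like factors), GGGCGG (the GC box), CCAAT or TATAAA.
Atp1b1, chr1:164458356-164458605: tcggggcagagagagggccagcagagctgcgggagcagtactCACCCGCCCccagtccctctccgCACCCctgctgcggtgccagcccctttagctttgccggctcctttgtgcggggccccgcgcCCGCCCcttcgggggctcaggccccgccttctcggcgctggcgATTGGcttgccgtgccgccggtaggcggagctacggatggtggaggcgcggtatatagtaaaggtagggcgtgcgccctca
Atp1b3, chr9:96364432-96364681: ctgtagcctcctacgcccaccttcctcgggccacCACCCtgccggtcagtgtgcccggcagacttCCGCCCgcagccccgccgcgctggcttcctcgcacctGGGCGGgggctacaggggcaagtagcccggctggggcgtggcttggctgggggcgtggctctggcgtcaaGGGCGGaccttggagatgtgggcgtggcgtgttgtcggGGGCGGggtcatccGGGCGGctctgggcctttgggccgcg

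The Atp1b1 window held 2 matches to CACCC, 2 to GGGCGG and 1 to CCAAT, and the first CACCC overlaps a GGGCGG match. The Atp1b3 window held 1 match to CACCC and 5 to GGGCGG. Both are rich in G and C, at 70.4% for Atp1b1 and 73.6% for Atp1b3, against a median of 52.4% over all windows. In all, 4 of the 6 genes matched 6 windows. Windows on chromosome 18, where Slc12a2 lies, were left out for the 6 genes but not for the counts over all windows. A CACCC match was present in each of the 6 windows, including a second Atp1b3 window (1 match), both Slc4a4 windows (3 and 1) and the Slc8a1 window (2). Such matches are common: of 32851 windows of this length, 52.0% held CACCC, 32.7% GGGCGG, 33.8% CCAAT and 12.4% TATAAA. A match describes the letters and is no evidence of binding.

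Age was compared first, in each genotype. In WT lenses 5 of the 6 genes were higher at PN56 than at E16.5, by 1.89-fold to 8.45-fold, and Slc8a1 did not pass the test. In lenses labelled Klf4CN 4 genes were higher, and Atp1b2 and Slc8a1 did not pass. A call means an adjusted p under 0.05 (Benjamini-Hochberg) in a limma fit over 13444 genes. Calls were common between the ages: 25.8% of all genes tested were higher and 30.9% lower in WT. In Klf4CN 53.1% were called, 22.3% higher and 30.8% lower, so the counts have to be read against that. The median log2 difference of the 6 genes was 1.31 in WT and 1.09 in Klf4CN, beside -0.04 and -0.10 over all genes tested.

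**Figure D1:**
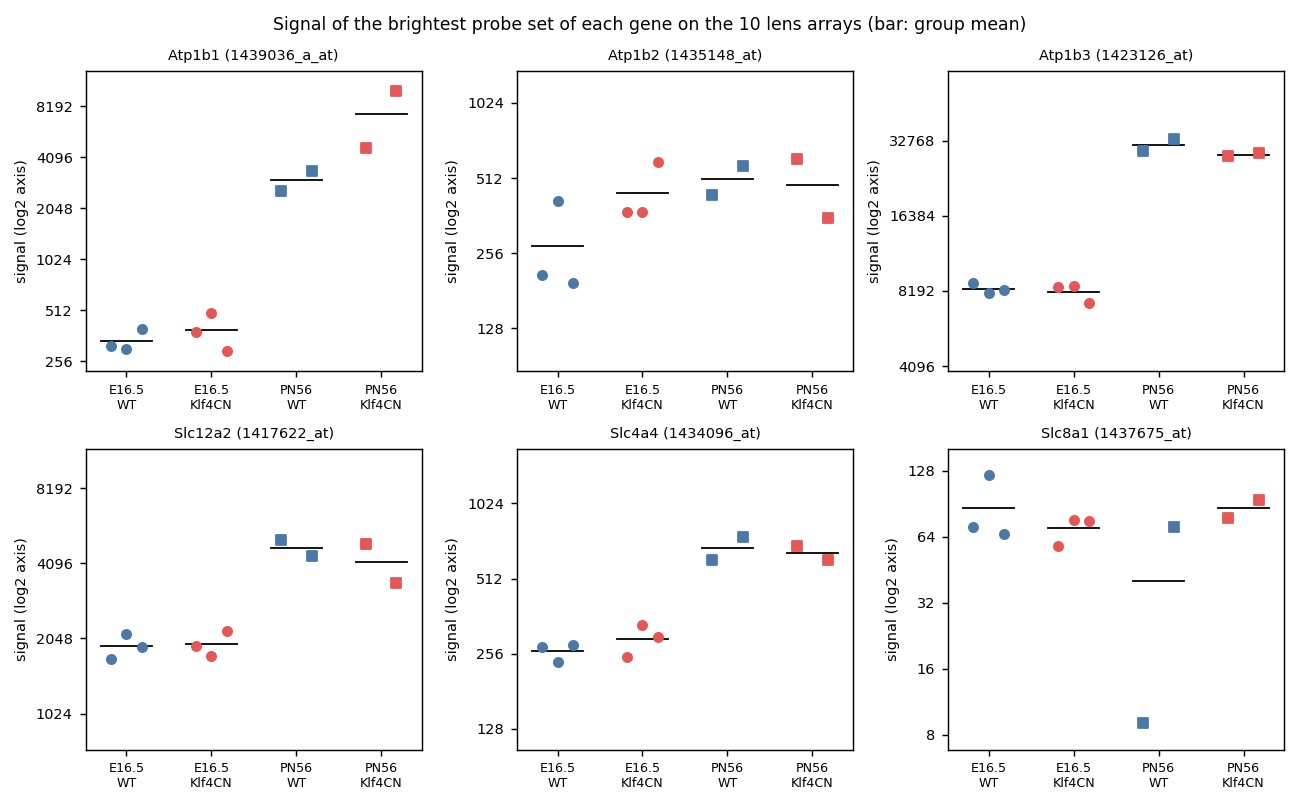
Signal of the brightest probe set of each gene on each of the 10 arrays (y axis, log2 scale, array signal units), with circles for E16.5, squares for PN56, blue for WT, red for Klf4CN and a bar at each group mean. All PN56 points of Atp1b1, Atp1b3, Slc12a2 and Slc4a4 lie above all E16.5 points, while those of Atp1b2 and Slc8a1 overlap with them.

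Atp1b3, the beta 3 subunit (chromosome 9, 96332655 to 96364431), gave signals of 8819, 8028 and 8236 on the E16.5 WT arrays and 8455, 8573 and 7302 on the E16.5 Klf4CN arrays. At PN56 the signals were 29685 and 33355 in WT and 28499 and 29118 in Klf4CN. The adult arrays stood far above the embryonic ones, and within each age the genotypes lay close together. The rise with age was 3.76-fold in WT (log2 1.91 ± 0.10, SE; limma adjusted p = 1.502e-08) and 3.56-fold in Klf4CN (log2 1.83 ± 0.10; limma adjusted p = 2.6858e-08). Group means ran from 31520 ± 2595 in PN56 WT to 28809 ± 437 in PN56 Klf4CN (SD, n = 2 each), then 8361 ± 410.2 in E16.5 WT and 8110.1 ± 702 in E16.5 Klf4CN (SD, n = 3 each). Neither genotype step in that order passed the test. It had 1 probe set, so no other one could be set beside it.

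Atp1b1, the beta 1 subunit (chromosome 1, 164437099 to 164458355), had the largest age difference of the 6 genes. Its brightest probe set, 1439036_a_at, read 315, 305 and 399 on the E16.5 WT arrays and 383, 491 and 295 on the E16.5 Klf4CN arrays. At PN56 it read 2579.5 and 3406 in WT, against 4635 and 10070.0 in Klf4CN. The embryonic groups overlapped, every adult array was higher, and at PN56 both Klf4CN arrays lay above both WT arrays. From lowest to highest the group means were 339 ± 51.6 in E16.5 WT, 389 ± 98.3 in E16.5 Klf4CN (SD, n = 3 each), 2993 ± 584 in PN56 WT and 7352 ± 3843 in PN56 Klf4CN (SD, n = 2 each). The first step did not pass the test. The rise with age was 8.45-fold in WT (log2 3.08 ± 0.29, SE; limma adjusted p = 2.4791e-06) and 17.2-fold in Klf4CN (log2 4.11 ± 0.29; limma adjusted p = 2.5325e-07).

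Of the 5 Atp1b1 probe sets, 4 were tested, and all 4 were called higher with age in both genotypes. In WT the other 3 rose by log2 2.45 (1423890_x_at), 2.05 (1451152_a_at) and 3.14 (1418453_a_at), and in Klf4CN by 2.51, 1.99 and 3.31. The brightest probe set thus gave an age difference like the others in WT and a larger one in Klf4CN. The mean of all 5 probe sets, the dim one included, rose by log2 2.46 in WT and 2.50 in Klf4CN. The remaining probe set, 1455949_at, was dim, with signals from 2.4 to 122.8.

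**Figure D2:**
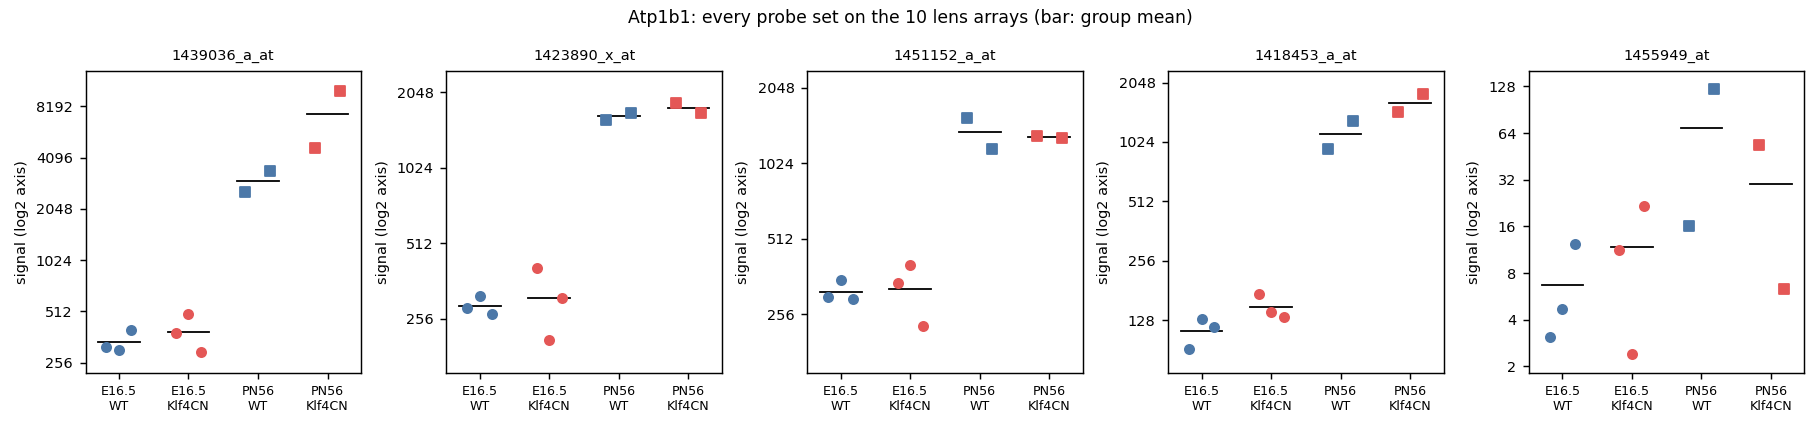
Signals of the 5 Atp1b1 probe sets (1 panel each) on the 10 arrays (y axis, log2 scale, array signal units; circles E16.5, squares PN56, blue WT, red Klf4CN, bar at the group mean). Adult arrays are higher in the first 4 panels, and both PN56 Klf4CN arrays lie above both WT arrays for 1439036_a_at (4635 and 10070.0 against 2579.5 and 3406), 1418453_a_at (1459 and 1783 against 948 and 1312) and, narrowly, 1423890_x_at (1851 and 1700.5 against 1597 and 1695).

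Atp1b2, the beta 2 subunit (chromosome 11, 69599728 to 69605978), is known as a glial adhesion molecule of the nervous system. Its brighter probe set, 1435148_at, read 210, 415 and 195.0 in E16.5 WT and 373, 373 and 594 in E16.5 Klf4CN. At PN56 it read 439 and 575 in WT and 609 and 356 in Klf4CN. Means were 273 ± 123, 447 ± 127 (SD, n = 3 each), 507 ± 96.0 and 483 ± 179 (SD, n = 2 each), in the same order. Only the E16.5 and PN56 WT groups were apart, with 415 and 439 as their nearest arrays. The WT rise was 1.89-fold (log2 0.92 ± 0.34, SE; limma adjusted p = 0.033341), and in Klf4CN the difference was log2 0.09 ± 0.34 (limma adjusted p = 0.83161). The WT call ended with each array centred on its median (log2 0.41, limma adjusted p = 0.3115), and without 1 of E16.5 WT replicates 1 or 3 or of the PN56 WT replicates (adjusted p from 0.05362 to 0.1845). The dimmer probe set, 1422009_at, was called higher with age in both genotypes, by log2 1.20 in WT and 0.97 in Klf4CN (limma adjusted p = 0.0053191 and 0.018794).

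Slc12a2, the NKCC1 cotransporter that brings sodium, potassium and chloride into cells (chromosome 18), gave signals of 1701.5, 2132 and 1894 in E16.5 WT and 1915.5, 1745 and 2193 in E16.5 Klf4CN. At PN56 they were 5071 and 4362.5 in WT and 4882 and 3409.9 in Klf4CN. The means were highest in PN56 WT (4717 ± 501) and PN56 Klf4CN (4146 ± 1041; SD, n = 2 each), and 1951 ± 226 in E16.5 Klf4CN and 1909 ± 215 in E16.5 WT (SD, n = 3 each). Every adult array exceeded every embryonic one, with a wide gap between the PN56 Klf4CN arrays. The rise with age was 2.46-fold in WT (log2 1.30 ± 0.16, SE; limma adjusted p = 2.4416e-05) and 2.09-fold in Klf4CN (log2 1.06 ± 0.16; limma adjusted p = 0.00013299). Its other probe sets rose too, 1448780_at by log2 1.24 in WT and 1.93 in Klf4CN and 1417623_at by 1.52 and 2.37. Those 2 had their highest signals in PN56 Klf4CN, where the brightest probe set had its highest in PN56 WT.

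Slc4a4, the sodium bicarbonate cotransporter NBCe1 (chromosome 5, 88793858 to 89239656), read 272, 238 and 277 in E16.5 WT and 249, 333 and 299 in E16.5 Klf4CN on 1434096_at. At PN56 the signals were 609.7 and 753 in WT and 689 and 607 in Klf4CN. The order of means was PN56 WT (681 ± 101), PN56 Klf4CN (648 ± 57.8; SD, n = 2 each), E16.5 Klf4CN (294 ± 42.5) and E16.5 WT (262 ± 21.2; SD, n = 3 each). The adult arrays were all higher and the genotypes overlapped at both ages. The rise was 2.50-fold in WT (log2 1.32 ± 0.19, SE; limma adjusted p = 8.764e-05) and 2.15-fold in Klf4CN (log2 1.11 ± 0.19; limma adjusted p = 0.00037216).

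The Slc4a4 probe sets did not run together. A second, 1452071_at, rose by log2 1.78 in WT and 1.98 in Klf4CN. The probe set 1421225_a_at gave log2 0.36 and -0.08, neither past the test. The last one tested, 1426432_a_at, fell in WT by 1.23 on the log2 scale (limma adjusted p = 0.040861) and was at 0.00 in Klf4CN. On that probe set the PN56 WT signals were 43.3 and 10.5, near the offset of 16 used in the fit, against 117 and 99.1 in Klf4CN. With the mean of all its probe sets Slc4a4 rose by log2 0.70 in WT, and in Klf4CN the value was 0.51 and no longer called (limma adjusted p = 0.07312). That mean includes the dim probe set 1450169_at, which was below the filter, at log2 1.26 in WT and -0.48 in Klf4CN.

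Slc8a1, the sodium-calcium exchanger NCX1 (chromosome 17, 81373105 to 81738387), was dim. Its brightest probe set, 1437675_at, read 70.7, 122.0 and 65.9 in E16.5 WT and 58.0, 76.5 and 75.5 in E16.5 Klf4CN. At PN56 it read 9.0 and 71.2 in WT and 77.9 and 94.5 in Klf4CN. The PN56 WT array at 9.0 stood apart from the other 9 arrays, and the group means, from 40.1 ± 44.0 in PN56 WT (SD, n = 2) to 86.2 ± 31.1 in E16.5 WT (SD, n = 3), did not differ beyond their spread. The age difference was log2 -1.09 ± 0.51 in WT (SE; limma adjusted p = 0.088961) and 0.25 ± 0.51 in Klf4CN (limma adjusted p = 0.70033). Without PN56 WT replicate 2, which leaves the array at 9.0, the WT value was -1.99 (limma adjusted p = 0.00532). Without PN56 WT replicate 1 it was -0.19. The other 3 probe sets were below the filter, with signals from 6.0 to 90.3.

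**Figure D3:**
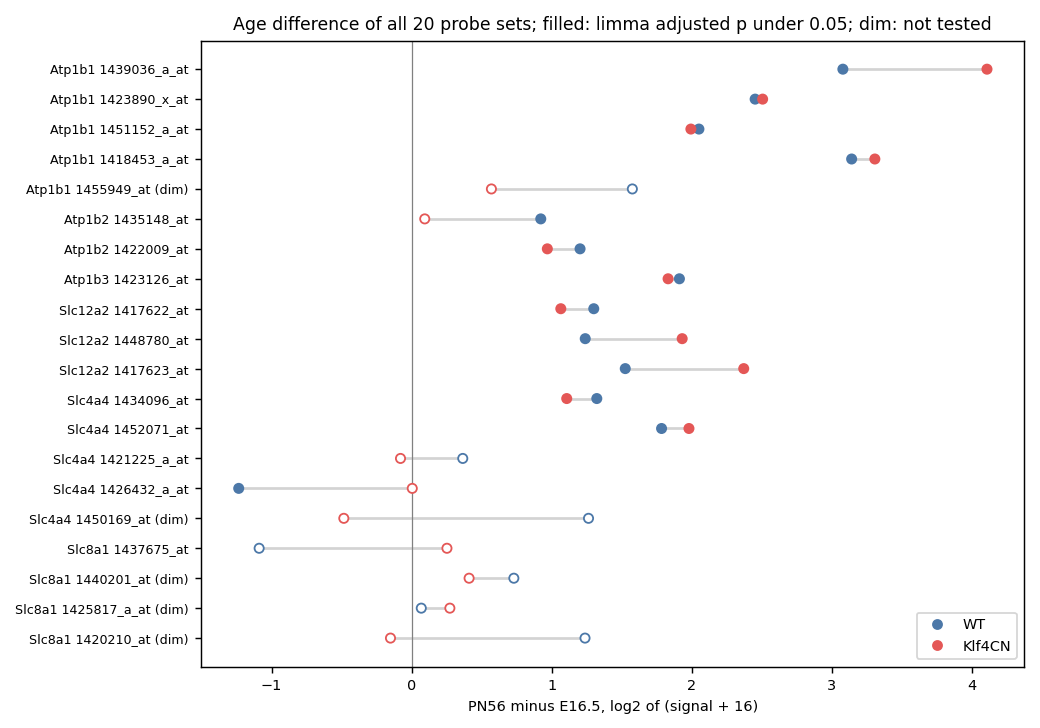
Age difference (x axis, PN56 minus E16.5, log2 of signal + 16) of each of the 20 probe sets (y axis) in WT (blue) and Klf4CN (red), filled where the limma adjusted p over all probe sets was under 0.05 and marked dim where not tested. Filled points lie to the right of 0 for every gene but Slc8a1, and 1 Slc4a4 probe set is filled to the left, at -1.23 in WT.

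Of the 15 tested probe sets, 12 were higher and 1 lower with age in WT, and 11 were higher and 0 lower in Klf4CN. Over all 27004 probe sets tested, 51.3% were called in WT, 26.6% higher and 24.7% lower, and 47.6% in Klf4CN, 23.2% higher and 24.4% lower.

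The age difference cannot be told apart from preparation, since the ages differ in animals pooled and in spike controls. The dap poly-A spike averaged 6098 in E16.5 WT and 7.6 in PN56 WT. The 4 probe sets of the cre hybridisation spike were higher at PN56 by log2 0.88 to 1.35 in WT and 0.46 to 0.92 in Klf4CN, and the control probe set for the 3' part of beta-actin by 1.15 and 0.85. In WT the values of Atp1b2, Slc12a2 and Slc4a4 lay within the range of the cre probe sets, and those of Atp1b1 and Atp1b3 lay above it. In Klf4CN all 4 genes called lay above it. Centring each array on its median moved the median of all genes to -0.55 in WT and -0.44 in Klf4CN. On that scale Atp1b1 was at 2.56 and 3.76, Atp1b3 at 1.395 and 1.49, Slc12a2 at 0.78 and 0.72 and Slc4a4 at 0.81 and 0.76, in WT and Klf4CN, all still called. The part of this scaling in the rises was not tested.

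The tissue label was checked against marker genes. Of 13 lens markers, such as crystallins, 12 were tested, and 9 were higher and 1 lower with age in WT (6 and 1 after quantile normalization). Their summed signal ran from 234860 to 272200 in E16.5 WT and from 743650 to 831250 in PN56 WT, so lens RNA was abundant in every group. Markers of other eye tissues moved with age as well. All 7 photoreceptor markers tested were higher in WT (6 with quantile normalization or median centring), with summed signals from 193 to 519 over the E16.5 arrays and of 5841 and 5593 on the PN56 WT arrays. The corneal and conjunctival sum ran from 118 to 249.9 at E16.5 and was 13581 and 11401 in PN56 WT, nearly all from Aldh3a1. Of 5 pigment cell markers tested 3 were higher in WT (median log2 2.90) and 1 was lower in Klf4CN (median -0.21). Of 7 retinal progenitor and neuron markers tested 1 was lower in WT (median log2 -1.09) and 5 in Klf4CN (median -2.74). Of 8 macrophage markers 7 were lower in WT, and in Klf4CN 6 were lower and 1 higher. Endothelial markers were all 7 lower. In E16.5 WT 3 photoreceptor and 7 endothelial markers had a mean at the filter signal, and in PN56 WT 7 and 3. The counts of these 2 lists thus follow in part from the filter. The part of these tissues in the age differences was not tested. In whole lens RNA a change in the share of a cell type and a change of RNA per cell cannot be told apart.

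Genotype was compared at each age. At E16.5 none of the 6 genes was called, nor was nearly any other gene (0.00744% of the 13444 tested). Log2 differences ran from -0.22 (Slc8a1) to 0.72 (Atp1b2), with a median of 0.09. Atp1b2 was the 1 gene of the 6 with an unadjusted p under 0.05 (log2 0.72 ± 0.30, SE; limma adjusted p = 0.99973). Its 3 Klf4CN signals of 373, 373 and 594 overlapped with the WT signal of 415. On its second probe set, 1422009_at, the signals were 71.4, 86.5 and 52.3 in WT and 113, 118 and 90.1 in Klf4CN, without overlap (log2 0.53, limma adjusted p = 0.99996). Of the 15 probe sets 0 were called, beside 0.0037% of all probe sets. Over the same WT arrays, replicates 1 to 3, the summed signal of retinal progenitor and neuron markers was 729, 4035 and 3129, and over the Klf4CN arrays 3359, 9138 and 6989. The pigment cell sum was 599.5, 917 and 2071.5 in WT and 4926, 7311 and 1961 in Klf4CN. Of 7 retinal and 5 pigment markers tested 0 were called at this age by limma, with median log2 differences of 1.65 and 1.92. The array's 5' control for 18S ribosomal RNA averaged 1869 in WT and 21778 in Klf4CN. The part of these in the Atp1b2 values was not tested.

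At PN56, 1 of the 6 genes was called, Atp1b1, which was higher in lenses labelled Klf4CN; 6.08% of all genes were called higher and 6.99% lower. The difference was 2.30-fold (log2 1.20 ± 0.32, SE, 95% interval 0.51 to 1.89; limma adjusted p = 0.027365). It rested on 1439036_a_at. Over all probe sets tested, this was the 1 of 15 called, where 10.1% of all probe sets were called, 5.1% higher and 4.98% lower. The other Atp1b1 probe sets gave log2 0.11, -0.05 and 0.53, none called (limma adjusted p = 0.82435, 0.93082 and 0.19859). The mean of the probe sets gave log2 0.21 (limma adjusted p = 0.5826). That mean includes the dim probe set 1455949_at, which was below the filter, at log2 -0.75. Without Klf4CN replicate 2, the array at 10070.0, the value was 0.64 (limma adjusted p = 0.2058), and without WT replicate 1 it was 1.001 (0.148). Without Klf4CN replicate 1 it was 1.76 (limma adjusted p = 0.003476).

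For the brightest probe sets of the other genes the PN56 genotype differences were not past the test. Atp1b3 was at log2 -0.13 (95% interval -0.36 to 0.11; limma adjusted p = 0.4793) and Slc12a2 at -0.20 (-0.59 to 0.18; 0.49037). Slc4a4 was at -0.07 (-0.52 to 0.39; limma adjusted p = 0.87104) and Atp1b2 at -0.10 (-0.91 to 0.70; 0.88262). The interval of Atp1b3 was the narrowest of the 6. Some dimmer probe sets gave other values. Both other Slc12a2 probe sets were higher on both PN56 Klf4CN arrays than on both WT arrays, at log2 0.63 and 0.80 (limma adjusted p = 0.22511 and 0.16606), and the mean of its probe sets was at 0.41. The Slc4a4 probe sets 1452071_at and 1426432_a_at were at 0.45 and 1.64 (limma adjusted p = 0.27512 and 0.060269). Those values lie outside the intervals of the brightest probe sets. Slc8a1 was at 1.13 (-0.10 to 2.35; limma adjusted p = 0.21345), and without PN56 WT replicate 2 at 2.03, called (0.02646). Under median centring Atp1b2, Atp1b3 and Slc4a4 turned to small positive values of 0.02, 0.00 and 0.06.

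**Figure D4:**
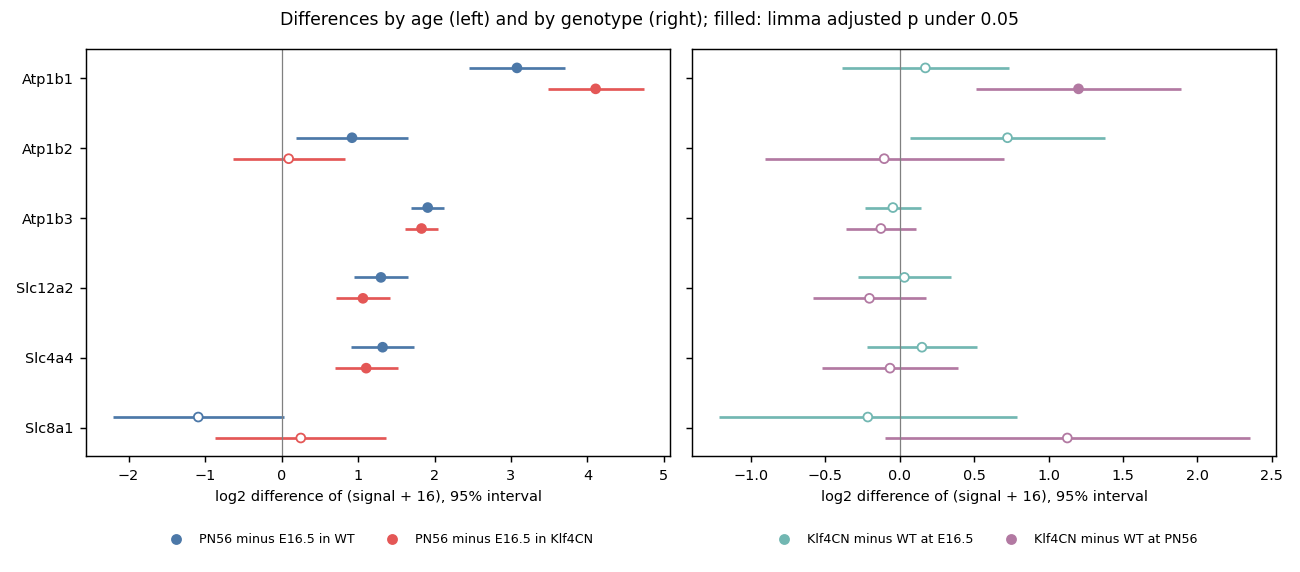
Log2 differences of the 6 genes with 95% intervals (x axis, log2 of signal + 16), by age on the left (blue WT, red Klf4CN) and by genotype on the right (teal E16.5, purple PN56), filled where the limma adjusted p was under 0.05. On the left 5 WT and 4 Klf4CN points are filled, and on the right Atp1b1 at PN56 (1.20) is the single filled point.

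Whether the genotype difference itself differed between the ages was tested directly. By limma none of the 6 genes was called (1 at an unadjusted p under 0.05, Atp1b1), against 4.61% of all genes, and none of the 15 probe sets, against 3.21%. Atp1b1 was at log2 1.03 ± 0.41 (SE; limma adjusted p = 0.17656). Without PN56 Klf4CN replicate 1 it was at 1.59 and called (limma adjusted p = 0.02246). So the PN56 call of Atp1b1 and its absence at E16.5 are not shown to differ in the fit on all 10 arrays. The spikes and markers differed between the adult genotypes too. The cre spike was at log2 -0.60 to -0.52 in Klf4CN against WT at PN56. The 5' 18S probe set averaged 1699 in PN56 WT and 8353 in PN56 Klf4CN (log2 2.66). The photoreceptor sum was 5841 and 5593 in PN56 WT and 14362 and 4218 in PN56 Klf4CN. Of the 12 lens markers 7 were lower in PN56 Klf4CN, 3 after quantile normalization and 1 with median centring. Of 8 macrophage markers 2 were higher in PN56 Klf4CN, with sums of 1539 and 1807 in WT and 2907 and 1838.5 in Klf4CN. Of 3 corneal and conjunctival markers tested 1 was lower, with sums of 13581 and 11401 against 6537 and 5404. Of 5 pigment cell markers tested 0 were called (median log2 -1.13), with sums of 5738 and 7399 in WT against 2876 and 2511 in Klf4CN. The part of these spikes and markers was not tested.

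The profiles of the 6 genes were set against all other tested genes by the root mean square difference of log2 values over the 10 arrays, each profile centred on its own mean. The genes closest to Atp1b1 were S100a6 (0.27) and S100a4 (0.30), small calcium-binding proteins, where the median gene was at 1.895. The closest to Atp1b3 were Arhgef5 (0.11) and Pcbd1 (0.12), to Slc12a2 Capn2 (0.11) and Ankrd33b (0.11), and to Slc4a4 Fadd (0.11) and Rxrb (0.11). Atp1b2 was closest to Lrfn1 (0.26) and Kcnc1 (0.27), and Slc8a1 to Pcnt (0.22) and Poc5 (0.245). Among the 6 genes Slc12a2 and Slc4a4 were the closest pair (0.23) and Atp1b1 and Slc8a1 the farthest (2.03).

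The genes that act with the 6 were read from 13 lists of 123 genes, of which 88 were tested. With age in WT, 27 were higher and 26 lower, 60.2% against 56.7% of all genes. At E16.5 none of the 88 was called by genotype in the limma fit (7 at an unadjusted p under 0.05). At PN56, 10 were higher and 6 lower in Klf4CN, 18.2% against 13.1% of all genes.

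FXYD proteins are small regulators of the sodium pump. Of 5 tested, Fxyd1 (phospholemman) rose from 626 ± 27.5 in E16.5 WT (SD, n = 3) to 6821 ± 1941 in PN56 WT (SD, n = 2). The log2 difference was 3.38 ± 0.17 (SE; limma adjusted p = 1.0929e-08), and in Klf4CN it was 3.80 ± 0.17 (6.533e-09). Fxyd5 (dysadherin) fell in WT by 2.04 on the log2 scale (limma adjusted p = 0.00010008), and in Klf4CN it was at -0.62, not called. At PN56 Fxyd5 was higher in Klf4CN, at 263 ± 33.2 against 92.4 ± 41.7 (SD, n = 2 each; log2 1.41, limma adjusted p = 0.014612). That call ended without PN56 WT replicate 1 (log2 1.01, limma adjusted p = 0.09478) or Klf4CN replicate 1 (1.29, 0.05917), with array weights (1.41, 0.08757) and in a fit on the PN56 arrays alone (1.41, 0.1013).

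Among the relatives of Slc12a2, 4 were tested and 1 rose in both genotypes, Slc12a5 (KCC2, a potassium-chloride exporter best known from neurons), by log2 1.94 in WT and 1.77 in Klf4CN. Slc12a9 fell by 0.70 in WT and fell by 0.79 in Klf4CN. The Slc12a9 calls ended with the mean of its probe sets, and without PN56 WT replicate 2 (-0.59, limma adjusted p = 0.0827) or PN56 Klf4CN replicate 2 (-0.47, 0.1011). Slc12a4 was at -0.47 in WT and 0.16 in Klf4CN and Slc12a7 at 0.52 and -0.41, none past the test; without PN56 WT replicate 2 the WT values were called, at -0.83 and 0.97. Of 8 kinases and partners of the WNK and SPAK pathway, which phosphorylates these cotransporters, Cab39l rose and Stk39 (SPAK) fell with age in both genotypes. At PN56 Cab39, a scaffold of SPAK, was higher in Klf4CN by log2 0.68, and Wnk2 was lower, at -0.96. The Wnk2 call ended without PN56 WT replicate 1 (-0.88, limma adjusted p = 0.06507), with the mean of its probe sets (-1.03, 0.1476) and with array weights (-0.96, 0.08176).

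In WT, 2 of 6 bicarbonate carriers related to Slc4a4 were higher with age and 2 lower, beside 25.8% and 30.9% of all genes. Slc4a5 rose by log2 3.19 in WT. In Klf4CN its rise ran from 1.11 to 1.70 over the alternatives, and its call was lost under 7 of 22. Slc4a1, the chloride-bicarbonate exchanger of red cells, fell by 5.06 in WT, and it is also one of the erythroid markers. Their sum lay between 3501 and 5469.7 at E16.5 and between 49.9 and 221 at PN56 (3 of 3 tested lower in both genotypes). Of these markers 3 had a mean at the filter signal in each E16.5 group, 0 in PN56 WT and 1 in PN56 Klf4CN. That count of lower markers thus follows in part from the filter. Carbonic anhydrases, which supply bicarbonate, were higher with age for 7 of 12 in WT and 5 in Klf4CN, and 0 were lower. Over all genes 25.8% were higher in WT and 22.3% in Klf4CN. Car2 rose in WT by log2 2.04 and in Klf4CN by 3.15. At PN56 it averaged 4604 ± 252 in WT and 11186 ± 808 in Klf4CN (SD, n = 2 each), a log2 difference of 1.28 ± 0.14 (SE; limma adjusted p = 0.00022153). Car8, a relative without enzyme activity, was lower in PN56 Klf4CN, at log2 -1.83, and at -0.64 and not called with the mean of its probe sets (limma adjusted p = 0.2187). Car3 and Car14 were also lower, at -1.81 and -0.88. Both calls ended with median centring. The Car3 call also ended without any 1 of the 4 PN56 arrays (adjusted p from 0.05479 to 0.17), and the Car14 call without either PN56 WT replicate or PN56 Klf4CN replicate 2 (0.06564 to 0.1485).

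Of 8 listed sodium-calcium exchangers other than Slc8a1, 6 were tested. All 6 were called with age in both genotypes, beside 56.7% of all genes in WT and 53.1% in Klf4CN. Slc24a1 rose by log2 3.28 in WT and 3.08 in Klf4CN, Slc24a2 by 2.83 and 1.91, Slc24a3 by 1.47 and 0.90, and the mitochondrial exchanger Slc8b1 by 0.96 and 1.45. Slc24a1 and Slc24a2 are known as the exchangers of rods and cones. The summed signal of photoreceptor markers ran from 193 to 519 over the E16.5 arrays and from 4218 to 14362 over the PN56 arrays. The part of photoreceptor RNA in these rises was not tested. Slc8a3 was lower, at -1.66 and -2.16, and Slc24a4 at -0.50 and -0.59. The WT calls of Slc8b1 (0.45 under median centring, limma adjusted p = 0.1626) and of Slc24a4 (-0.33 without PN56 WT replicate 2, 0.09797) did not hold throughout. The Klf4CN call of Slc8a3 was lost under 1 of 21 alternatives (limma adjusted p = 0.06024). By limma none of these 6 was called by genotype at PN56 (2 at an unadjusted p under 0.05), beside 13.1% of all genes.

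**Figure D5:**
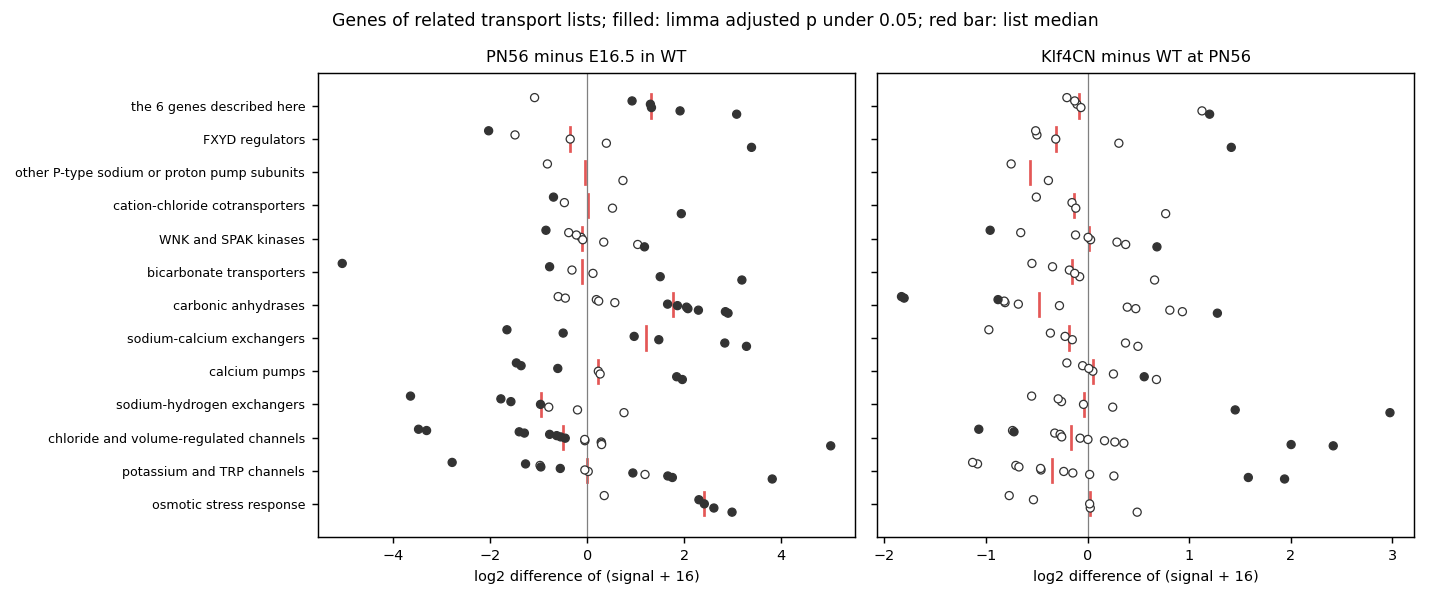
Log2 differences (x axis, log2 of signal + 16) of the 6 genes and of the genes of 12 related lists with tested members (y axis), for age in WT on the left and genotype at PN56 on the right. Each point is a gene, filled where the limma adjusted p was under 0.05, and the red bar is the list median: 1.31 for the 6 genes, 1.76 for carbonic anhydrases and 2.41 for the osmotic stress list on the left.

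Genes of the osmotic stress response, which load cells with organic solutes, were higher with age for 4 of 5 in both genotypes, with a median of 2.41 in WT and 2.24 in Klf4CN. Over all genes 25.8% were higher in WT and 22.3% in Klf4CN. The taurine carrier Slc6a6 rose by log2 2.61 in WT and 2.24 in Klf4CN, the inositol carrier Slc5a3 by 2.41 and 2.71, and the kinase Sgk1 in WT by 2.98. Nfat5, the transcription factor of this response, was at 0.35 and -0.17, not called. By limma none of the 5 was called by genotype at PN56 (2 at an unadjusted p under 0.05), beside 13.1% of all genes.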

How the data were processed

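The deposited values were intensities, 1 linear signal per probe set and array, made with GCOS 1.4 per the submitters' processing notes. What else the authors did is not given in the sources used here. With 2% trimmed at each end, the mean signal was 500.0 on each of the 10 arrays. All differences are thus relative to a fixed trimmed mean. Array medians lay between 63.0 and 76.9 (E16.5) and between 91.0 and 108.6 (PN56), and Pearson correlations within groups, across genes, from 0.951 to 0.981. Control probe sets were left out. The brightest probe set stood for a gene, and genes at or above the 40th percentile of mean signal (54.06) were tested as log2(signal + 16) with limma 3.58.1 (R 4.3.3), two-sided, in 1 fit of 4 group means over 10 arrays with an intensity trend. The small number of arrays limits precision. The fit was tested on simulated data. The genes and lists were chosen with earlier results of these data known. Named genes were the 6, their exchanger and cotransporter relatives and the 2 nearest profiles. Of the other lists some of the called genes were named, not all, at most 4 per direction for genotype and 3 for age. Deviations of same-numbered arrays correlated at 0.271, 0.240 and 0.052 at E16.5, against -0.276 to 0.062 for arrays of different number. At PN56 the values were 0.041 and -0.041. With 2 arrays per group these are fixed at 1 size, so they cannot show pairing or its absence. The main fit used no pairing. Alternatives changed scaling, offset, filter, probe set rule, trend, array weights, arrays and block.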

Additional observations from a re-analysis of the deposited data

Results flagged for a closer look

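For 7 of the 88 tested genes of the related lists the genotype difference at PN56 itself differed from that at E16.5. The value is a difference of log2 differences, called at a limma adjusted p under 0.05 over all genes. The share was 7.95%, beside 4.61% of all genes. None of the 6 genes described above was among the 7. Car2 was at 1.10 (limma adjusted p = 0.0068735) and stayed past the threshold under all 21 alternatives. The sodium-hydrogen exchanger Slc9a7 was at 2.89, past it under all 20 that tested it, with PN56 WT signals of 12.1 ± 6.51 (SD, n = 2) below the offset. Car8 was at -1.27 and lost the call under 8 of 21, among them median centring and leaving out E16.5 Klf4CN replicates 1 or 3, PN56 WT replicate 2 or PN56 Klf4CN replicate 2. Cab39 was at 0.69 and lost it under 14 of 21. The calcium pump Atp2c1 was at 0.65, lost it under 14 and was at -0.10 with the mean of its probe sets. The volume-regulated channel subunit Lrrc8c was at 1.96 and lost it under 8, and the chloride channel Ano1 was at 1.75 and lost it under 5, among them leaving out E16.5 WT replicate 2. The PN56 WT signals of Slc9a7, Lrrc8c and Ano1 lie near the offset of 16, which sets the size of these values in part.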

How the results depend on the processing

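Over 644 alternative values for the 6 genes, 597 kept direction and side of the threshold, 14 lost a call, 5 gained one and 28 changed sign; causes were not tested unless given above. At PN56 the count of the 6 genes that differed by genotype was 1, and 0 with the mean of probe sets, with no intensity trend (Atp1b1, limma adjusted p = 0.08503) and with array weights (0.09226). Leaving out 1 array it ran from 0 (without PN56 WT replicate 1 or Klf4CN replicate 2) to 2 (without PN56 WT replicate 2). The count for the difference between ages ran from 0 to 1. The age rises of Atp1b1, Atp1b3 and Slc12a2 were called in both genotypes under each of the 22 alternatives run. Atp1b2 in WT also lost its call with no trend (limma adjusted p = 0.06533) and array weights (0.08453). Slc8a1 in WT was called under quantile normalization (-1.50, limma adjusted p = 0.0191) and median centring (-1.61, 0.01422). Slc8a1 was not tested with a filter at the 60th percentile or with the mean of its probe sets.

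The replicate number was also used as a block, a pairing that the correlations do not settle. The counts of the 6 genes were then 0 and 1 for genotype at E16.5 and PN56, 0 for the difference, and 4 and 4 for age. Atp1b2 in WT was lost (0.94, limma adjusted p = 0.05642).

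For genotype at E16.5, Slc12a2 was at -0.013 with centring and -0.023 with the probe set mean. Over arrays left out, Atp1b1 ran from -0.004 (without Klf4CN 2) to 0.350, Atp1b3 from -0.088 to 0.027 (Klf4CN 3), Slc12a2 from -0.056 (Klf4CN 3; -0.048 without WT 1) to 0.113, and Slc8a1 from -0.354 to 0.022 (WT 2). For genotype at PN56, centring gave Atp1b2 0.023, Atp1b3 0.001 and Slc4a4 0.062, and the probe set mean gave Atp1b2 0.095, Slc12a2 0.411 and Slc4a4 0.078. Over arrays left out, Atp1b2 ran from -0.480 to 0.270 (without Klf4CN 2; 0.083 without WT 2), Slc12a2 from -0.462 to 0.054 (Klf4CN 2) and Slc4a4 from -0.215 to 0.082 (WT 2; 0.023 without Klf4CN 2). For the difference, Atp1b3 was at 0.091 (centring) and ran from -0.165 to 0.003 (without PN56 WT 2), and Slc12a2 was at 0.434 (probe set mean) and ran from -0.493 to 0.023 (PN56 Klf4CN 2). For age in Klf4CN, Atp1b2 was at -0.251 (centring) and ran from -0.282 (without PN56 Klf4CN 1; -0.015 without E16.5 Klf4CN 1 or 2) to 0.468, and Slc8a1 was at -0.107 (quantile) and -0.093 (centring). Among other genes, Slc12a4 was at -0.19 (centring) and Slc12a7 at 0.59 (probe set mean) for age in Klf4CN. With the probe set mean, Atp2c1 was at -0.10 (-0.096) for the difference and at 0.68 for age in WT, a call in the opposite direction (limma adjusted p = 0.01316).

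Centring put 72% of the PN56 genotype calls over all genes on the higher side, against 46.5% without it, and 20.8% against 45.5% of the WT age calls. All PN56 genotype calls numbered 1757, 634 with array weights, 773 from the 4 PN56 arrays alone and 1061 with the probe set mean, and 2720 over single probe sets. The 5 probe sets below the filter give no usable differences, yet the probe set means include them.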

Other observations

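Of the related lists not described above, sodium-hydrogen exchangers and their scaffolds were lower with age for 4 of 7 in both genotypes, with medians of -0.97 in WT and -1.03 in Klf4CN. Over all genes 30.9% were lower in WT and 30.8% in Klf4CN. Chloride and volume-regulated channels were lower for 8 of 14 in WT and 9 in Klf4CN, 7 and 7 after quantile normalization and 9 and 11 with median centring. Clic5, of the chloride intracellular channel family, was the 1 gene of the list that was higher, with a rise of log2 5.02 in WT and 4.73 in Klf4CN (limma). Ano1, a calcium-activated chloride channel, fell in WT by 3.48 and in Klf4CN by 1.73 on the log2 scale, and Lrrc8c fell by 3.32 in WT and fell by 1.35 in Klf4CN.

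At PN56, Slc9a7, Ano1 and Lrrc8c had low WT signals, of 12.1, 17.2 and 14.85, and higher signals in lenses labelled Klf4CN, of 202, 162 and 102. Those WT signals lie near the offset of 16, so the sizes are set in part by it: over offsets of 1 and 64 the log2 differences were 4.05 and 1.81 for Slc9a7, 3.17 and 1.47 for Ano1, and 2.99 and 1.08 for Lrrc8c. The Ano1 and Lrrc8c calls were lost in a fit on the 4 PN56 arrays alone (limma adjusted p = 0.0527 and 0.1588). Of the 14 chloride and volume-regulated channels, 2 were higher in PN56 Klf4CN and 2, Clcn5 and Clic5, were lower. The Clcn5 and Clic5 calls were lost under 15 and 13 of 22 alternatives. Over all genes 6.08% were called higher and 6.99% lower.

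Potassium and TRP channels had 4 of 12 higher and 4 lower with age in WT (2 and 5 after quantile normalization, 2 and 6 with median centring), with Kcnj13, an inward rectifier, at log2 3.81. Over all genes, without that rescaling, 25.8% were higher and 30.9% lower with age in WT.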
